A study of Mus musculus with 8 samples.

Results

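The genes for the lymphocyte cytokines interleukin 17 (Il17a and Il17f), interleukin 22 (Il22 and its copy Iltifb) and interferon gamma (Ifng) were followed in mouse peritoneal macrophages exposed to LECT2. These 5 genes were chosen on their measured LECT2 effects, the same values that are given below as a description and not as a test. They were taken as the probes annotated with a RefSeq transcript of the 5 genes, which gave 6 probes of the 39429 on the array, 2 of them for Iltifb. All 5 genes were among the 26148 genes tested.

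LECT2 is leukocyte cell-derived chemotaxin 2, a protein that hepatocytes release into the blood. Peritoneal macrophages from mice were plated in low-glucose medium with 20% fetal bovine serum and kept with LECT2 at 0.5 µg/ml (the low dose), at 5 µg/ml (the high dose) or with none, for 3.5 h or 48 h. Each of 8 Agilent arrays carried RNA of LECT2-treated cells labelled with Cy3 and RNA of untreated cells of the same time labelled with Cy5. There were 4 groups of 2 arrays each (low dose 3.5 h, high dose 3.5 h, low dose 48 h, high dose 48 h), from 2 independent experiments with different mice. The early time is 3.5 h in the titles but 3 h in the labels of the channels. The strain, sex and age of the mice, the source of the LECT2 protein and any purification of macrophages beyond washing and plating are not given in the sources used here.

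IL-17A and IL-17F are related proteins that pair with each other and act through a receptor containing Il17ra, which calls up neutrophil-attracting chemokines and growth factors. IL-22 acts through Il22ra1 with Il10rb, of which Il22ra1 is found on epithelial cells rather than blood cells, and is known for acute phase and antimicrobial genes. Interferon gamma acts on macrophages through Ifngr1, Ifngr2, Jak1 and Jak2 and drives their guanylate-binding proteins and antigen processing genes. All 3 kinds of cytokine are classically made by T cells, NK cells and innate lymphoid cells that answer IL-23, IL-1, IL-12 and IL-18 from macrophages and dendritic cells. Peritoneal cells hold such lymphocytes beside macrophages, and in RNA of a whole culture more cells of a type and more RNA per cell cannot be told apart.

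The promoters of 4 of the genes are shown so that the regulatory letters near their starts can be read beside the values. Each run is the 250 bases before the annotated start of the gene, written 5′ to 3′ on the gene's strand, from RefSeq on GRCm38.p6. All 5 genes had an entry. Capitals mark the motifs found by letter search on both strands: AGGTCA (the ROR element, read as TGACCT on the other strand), TGANTCA (AP-1), GGAAA (the NFAT core, TTTCC on the other strand), TTCNNNGAA (STAT) and TATAAA (the TATA box).
Il17a, chr1:20730655-20730904, + strand: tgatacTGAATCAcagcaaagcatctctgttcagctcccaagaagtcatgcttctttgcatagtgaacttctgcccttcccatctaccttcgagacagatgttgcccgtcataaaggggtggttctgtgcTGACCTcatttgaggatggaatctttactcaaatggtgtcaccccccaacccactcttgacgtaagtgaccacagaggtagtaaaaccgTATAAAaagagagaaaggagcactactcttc
Il17f, chr1:20784271-20784520, - strand: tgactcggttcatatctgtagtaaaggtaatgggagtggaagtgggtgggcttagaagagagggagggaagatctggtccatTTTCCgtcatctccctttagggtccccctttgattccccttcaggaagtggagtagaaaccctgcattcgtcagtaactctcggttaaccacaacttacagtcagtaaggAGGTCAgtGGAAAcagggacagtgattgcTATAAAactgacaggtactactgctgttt
Iltifb, chr10:118295039-118295288, - strand: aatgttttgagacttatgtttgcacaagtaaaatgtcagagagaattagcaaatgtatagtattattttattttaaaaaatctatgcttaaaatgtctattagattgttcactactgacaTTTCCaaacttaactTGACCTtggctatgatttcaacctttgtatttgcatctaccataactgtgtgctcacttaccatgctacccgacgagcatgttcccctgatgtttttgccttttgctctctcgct
Ifng, chr10:118440796-118441045, + strand: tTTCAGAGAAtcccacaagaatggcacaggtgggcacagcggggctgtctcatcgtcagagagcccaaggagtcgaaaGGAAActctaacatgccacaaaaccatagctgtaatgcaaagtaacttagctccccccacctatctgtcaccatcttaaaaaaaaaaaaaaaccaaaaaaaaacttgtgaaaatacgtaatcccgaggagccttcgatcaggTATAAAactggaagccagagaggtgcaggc

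The ROR element, the letters bound by orphan receptors such as that of the Rora gene, was found in Il17a at -120, in Il17f at -58 and in Iltifb at -115, counted from the gene start. It was in 3 of the 5 members and in 14.0% of 32851 such windows over the genome. The AP-1 letters were found in Il17a at -244, against 6.75% of windows, and the STAT letters in Ifng at -249, against 7.02%. The NFAT core was in 4 of 5 members but also in 55.6% of all windows. The TATA box was in 4 of 5 members, against 12.4% of windows. Close to the start it lay at -31 in Il17a, at -29 in Il17f and at -30 in Ifng, and in Il22 it lay further off at -170. A letter match is a description of these windows only.

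Iltifb is a duplicated copy of Il22. Around their starts the windows of 300 bases of the 2 genes shared a stretch of 102 bases, of which 98 (96.1%) were identical. The probe sequences were not used here, so whether a probe of one copy also picks up the other is not known, and the 2 genes' values are uncertain in that respect.

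The deposited log2 ratios have the control on top, although the titles name LECT2 first. They are turned round here, so a positive value means more signal with LECT2. LECT2 and control RNA carried the same dyes on every array, so an effect of the dye and of LECT2 cannot be told apart, except where the doses or times differ. For 7 of the 8 columns of the deposited table, the scanner file that follows it best (r from 0.990 to 1.000 over 20622 bright probes) is recorded under another sample. The remaining column, replicate 1 of the low dose at 3.5 h, goes with its own file, at r = 0.807. Groups here are those of the table's columns, and signals are those of the files that follow each column. By value, the 48 h columns equal the ratio of these files' processed signals for 99.4% to 99.5% of probes. The 3.5 h columns do so for 2.66% to 9.06% only. In the table's values, time and the way a column was made thus cannot be told apart. With the files as recorded the members' group values are different, and they are given after the members below.

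Across all genes the 2 arrays of a group correlated at r = 0.414 (low dose) and 0.721 (high dose) at 3.5 h and at 0.352 (low dose) and 0.620 (high dose) at 48 h. The median effect over all genes lay between -0.03 and 0.02 in the 4 groups. All 9 macrophage markers on the array, such as Adgre1 and Csf1r, were well above background in both channels on both arrays of each group.

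Il17a, which encodes the lead cytokine of type 17 lymphocytes, had its highest values at the high dose. On the log2 scale the effect of LECT2 on its probe was 1.97 and 0.90 at the low dose and 5.53 and 4.65 at the high dose at 3.5 h (replicates 1 and 2). At 48 h it was 1.05 and 1.08 at the low dose and 9.33 and 7.12 at the high dose. The high dose arrays lay above the low dose arrays at both times without overlap, and the high dose arrays at 48 h above those at 3.5 h.

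The signals show where these ratios rest on a measured control. With LECT2 the processed Il17a signal was 58.3 and 11.0 at the low dose and 845 and 161 at the high dose at 3.5 h, and 16.2 and 16.8 at the low dose and 3027 and 6327 at the high dose at 48 h. In controls it was between 4.69 and 45.6 on the 8 arrays, and well above background on 1 of them, the second array of the high dose at 48 h. The LECT2 channel was well above background on 5 of 8 arrays: all 4 of the high dose and 1 of the low dose. Where the control was dim on both arrays a bound was taken, with the control taken at each array's lowest signal that was well above background, or at its own signal where that was higher, after normexp, loess and between-array scaling; it is open to dye bias. By this bound Il17a was at least 5.17-fold higher with LECT2 at the high dose and 3.5 h. At the low dose no fold is given, since the LECT2 channel itself was well above background on 1 of the 2 arrays at 3.5 h and on 0 of 2 at 48 h.

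Il17f, the gene next to Il17a and the code for its close relative, was measured better on the control side. Its control signal was well above background on 8 of 8 arrays, between 37.9 and 116, and its LECT2 signal on 6 of 8. The effect at 3.5 h was 1.61 and 0.17 at the low dose and 5.26 and 3.02 at the high dose. At 48 h it was 0.63 and 0.26 at the low dose and 3.83 and 3.35 at the high dose. The high dose arrays did not overlap with the low dose arrays at either time.

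In contrast to Il17a, the Il17f effects of the high dose at 3.5 h and 48 h overlapped. Its LECT2 signals at the high dose were 6259 and 930 at 3.5 h and 971 and 836 at 48 h, against control signals of 116 and 94.2 at 3.5 h and 68.2 and 82.0 at 48 h. The mean effect of the high dose was 4.14 ± 1.58 at 3.5 h and 3.59 ± 0.34 at 48 h (SD, n = 2).

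**Figure D1:**
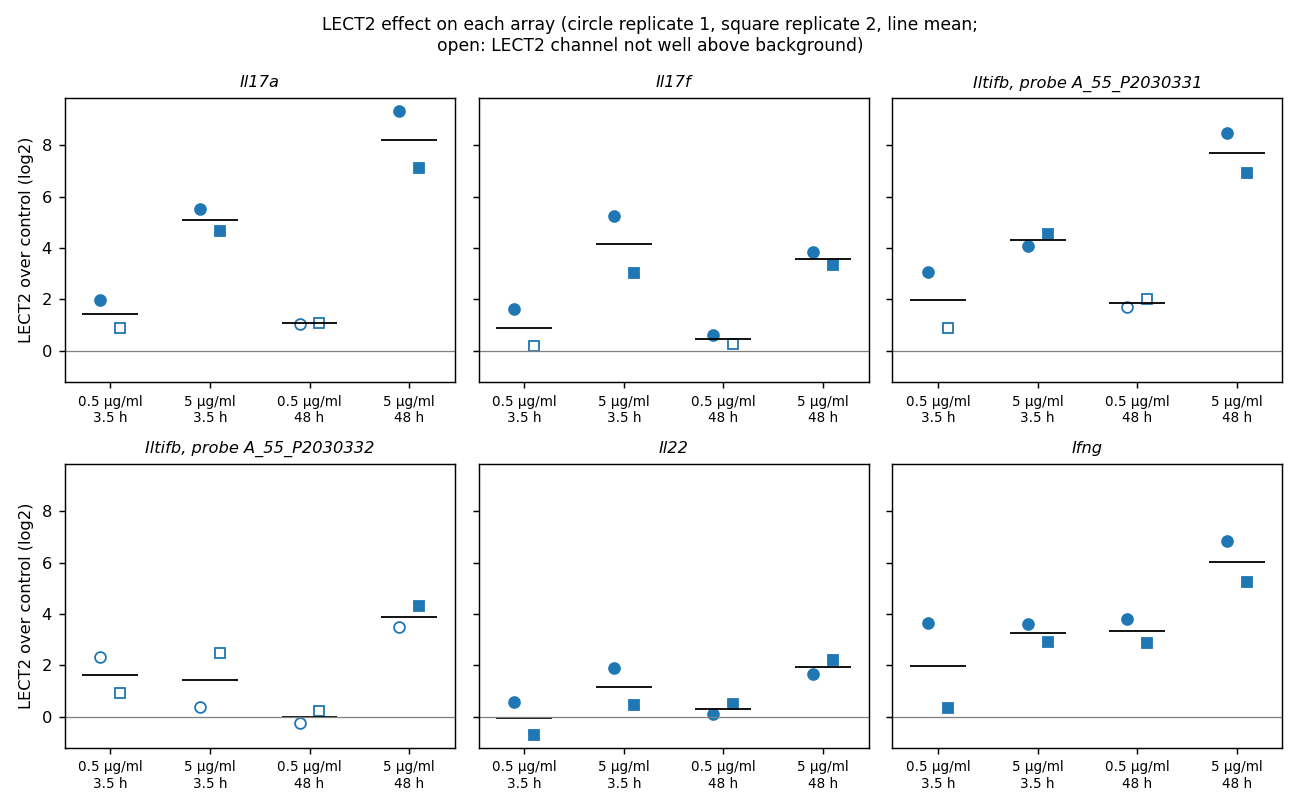
Effect of LECT2 on each of the 6 probes, as log2 of LECT2 over control (vertical axis), for the 4 dose and time groups (horizontal axis); circles are replicate 1, squares replicate 2, lines group means, and open symbols mark a LECT2 signal not well above background. The high dose arrays of Il17a lie at 5.53 and 4.65 at 3.5 h and at 9.33 and 7.12 at 48 h, and the 8 Il22 arrays lie between -0.71 and 2.20.

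Iltifb, by its brighter probe (A_55_P2030331), also had its highest values at the high dose and 48 h. The effect at 3.5 h was 3.08 and 0.88 at the low dose and 4.07 and 4.55 at the high dose. At 48 h it was 1.72 and 2.00 at the low dose and 8.49 and 6.93 at the high dose. The groups of the high dose lay above those of the low dose at both times, and the control was well above background on 0 of 8 arrays.

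At the high dose the Iltifb signal with LECT2 was 249 and 97.6 at 3.5 h and 1958 and 4131 at 48 h, against 21.8 and 4.26 at 3.5 h and 5.43 and 33.9 at 48 h in controls. The bounds were at least 2.86-fold at 3.5 h and at least 21.6-fold at 48 h. At the low dose no fold is given, since LECT2 was well above background on 1 of the 2 arrays at 3.5 h, with signals of 40.5 and 13.2, and on 0 of 2 at 48 h. The second probe of the gene (A_55_P2030332) was well above background on 1 array, in its LECT2 channel, at the high dose and 48 h, where its effect was 3.50 and 4.30. Its effects elsewhere come from 2 dim channels. They were 2.31 and 0.93 then 0.38 and 2.48 at 3.5 h, and -0.26 and 0.22 at the low dose and 48 h. The 2.31 is in doubt as a measured effect. Areg, Cebpd and Il15 had the same value, 2.3097, in replicate 1 of the low dose at 3.5 h. The processed signals of the dim Iltifb probe there, 3.39 with LECT2 and 4.82 in the control, gave -0.505. Why the value recurs was not tested.

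Il22 was measured in both channels throughout. Its probe was well above background in both on all 8 arrays, with signals between 585 and 5289 with LECT2 and between 552 and 1655 in controls. The effect was 0.56 and -0.71 at the low dose and 1.88 and 0.46 at the high dose at 3.5 h. At 48 h it was 0.10 and 0.47 at the low dose and 1.67 and 2.20 at the high dose.

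The 2 arrays of the low dose at 3.5 h differed in direction for Il22, and at 3.5 h the high dose arrays (1.88 and 0.46) overlapped with the low dose arrays. At 48 h they did not overlap. The mean Il22 effect at the high dose and 48 h was 1.94 ± 0.37 (SD, n = 2).

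Ifng, the gene for interferon gamma, was measured with LECT2 in every group. Its LECT2 channel was well above background on 8 of 8 arrays and its control channel on 3 of 8, all at 3.5 h. The effect at 3.5 h was 3.65 and 0.32 at the low dose and 3.60 and 2.91 at the high dose. At 48 h it was 3.82 and 2.86 at the low dose and 6.83 and 5.24 at the high dose.

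At 3.5 h the doses overlapped because the 2 low dose arrays lay far apart, and at 48 h they did not overlap. With LECT2 the Ifng signal was 1470 and 86.6 at the low dose and 7434 and 1805 at the high dose at 3.5 h, against 78.4 and 56.0 and then 412 and 184 in the controls on the same arrays. At 48 h it was 130 and 99.7 at the low dose and 782 and 1272 at the high dose, against 9.23 and 13.7 and then 6.89 and 33.6 in controls. The control was not well above background at 48 h. The ratios of the table rest there on a dim channel: from the same scanner files after normexp and loess the mean Ifng effect at 48 h was 0.48 at the low dose and 2.90 at the high dose. At 3.5 h it was then 1.86 and 3.39. The order of the times thus turned at both doses, since the table's means were 1.99 and 3.25 at 3.5 h and 3.34 and 6.03 at 48 h. No lower bound apart from the normexp and loess values is given at 48 h, because the normalized control signal lay above the lowest measured signal on all 4 arrays of that time.

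**Figure D2:**
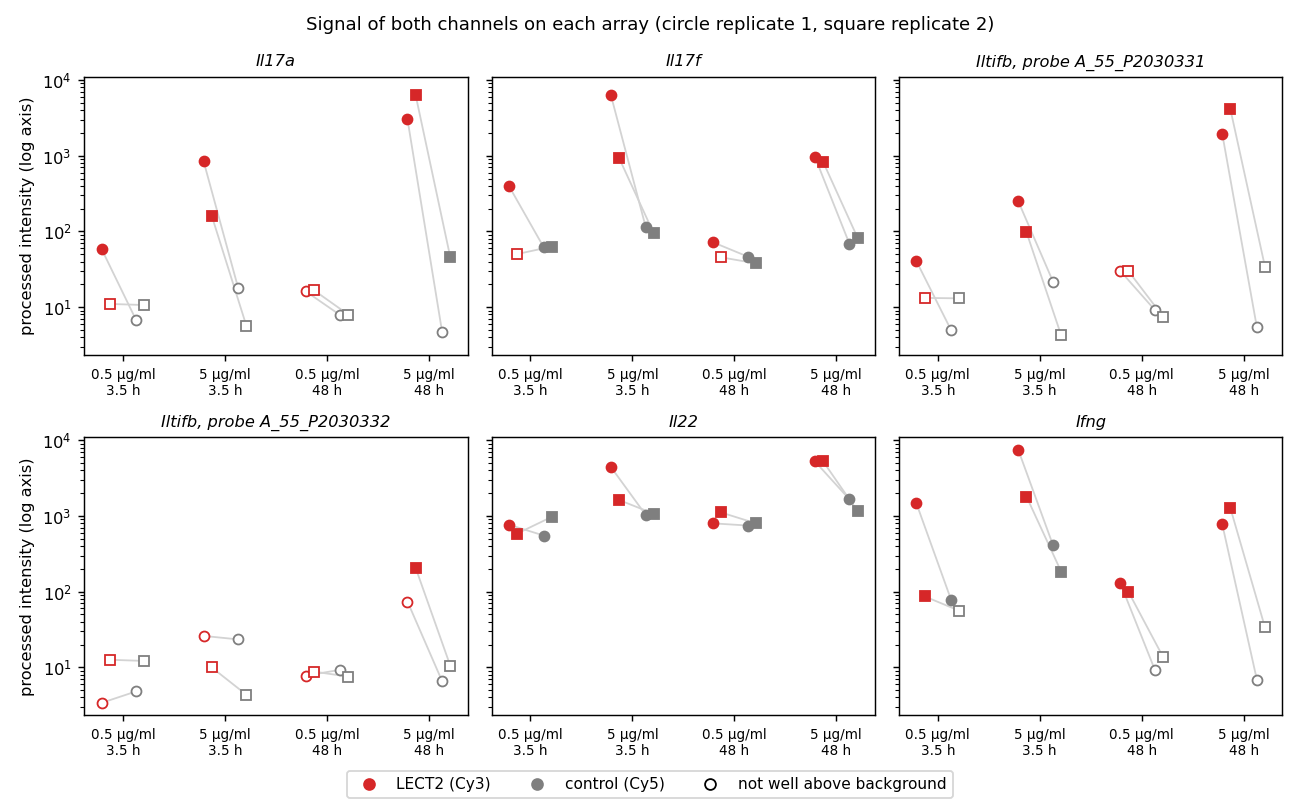
Processed signal (vertical log axis) of LECT2-treated cells (red, Cy3, left) and control cells (grey, Cy5, right) for each probe and group, with a line joining the channels of 1 array; open symbols are not well above background. The control symbols of the brighter Iltifb probe are open on all 8 arrays and those of Il17a on all but 1, and both channels of Il22 are filled throughout.

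In the deposited ratios both replicates agreed in direction in most cases. Of the 6 probes 4 were positive on 8 of 8 arrays (Il17a, Il17f, the brighter Iltifb probe and Ifng), and Il22 and the dim Iltifb probe on 7 of 8. The same values chose the genes, so these counts are a description. Il17a and the brighter Iltifb probe were dim in both channels on both low dose arrays at 48 h. For the dim Iltifb probe that count includes the recurring value of 2.31. At 3.5 h replicate 1 of the low dose was above replicate 2 for all 6 probes, for the dim Iltifb probe by the same recurring value. The gap was widest for Ifng, at 3.65 against 0.32 in replicate 2. That array's column is the one whose scanner file follows it least well. From the scanner files that follow the columns, after normexp and loess, replicate 2 of the low dose at 3.5 h was not positive throughout. It was then at -0.07 for Il17a and -0.11 for Il17f, and at 0.14 for the brighter Iltifb probe and 0.26 for Ifng.

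In the fit over all genes (limma with Benjamini-Hochberg adjustment at 0.05) the members called higher were 0 of 5 at the low dose and 3.5 h, where 2.75% of all genes were called higher (4.89% in either direction). They were 4 of 5 (all but Il22) at the high dose and 3.5 h, where 10.2% were called higher (21.9% in either direction). At 48 h they were 0 of 5 at the low dose (0.153% higher, 0.172% in either direction) and 5 of 5 at the high dose (4.31% higher, 11.2% in either direction). Since these values chose the genes, the counts are descriptive. The dose difference at 3.5 h gave 0 calls among the members and 0% over all genes (0 of 26148, with 2048 at an unadjusted p under 0.05). The change of the high dose effect between 3.5 h and 48 h gave 2 of 5, both higher at 48 h, against 8.3% of all genes (4.52% higher, 3.78% lower).

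The members' values moved together across the 8 arrays to different degrees, given here as Pearson's r of the effects, with shared arrays and shared dose groups and without a test. Il17a and Iltifb had r = 0.97, Il17a and Il17f 0.84, Il17f and Iltifb 0.74, and Il22 and Iltifb 0.82. Ifng had r = 0.86 with Iltifb, 0.79 with Il17a and 0.58 with Il17f. Among 16753 other genes with a symbol the highest r with Il17a was 0.97 for Rora, which encodes a receptor that binds the ROR element, followed by Iltifb, Mdm2, Gna13 and Ttpal. The Rora effect itself was small, between -0.72 and 0.70, and was negative at the low dose on all 4 arrays. Next to Iltifb the closest after Il17a were Enpp4, Large2, Krt16 and Saa2, and next to Ifng they were Ubxn6, P2ry14, Phyhd1, Foxf2 and Mpp7. For Il17f they were Rtp2, Rybp, Map2k1, Ppp1r15b and Plcl2, and for Il22 Iqcf3, Osmr, Ppm1k, Cd200 and Osbp2.

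The size of the members' effects depended on how dim signals were treated. From the scanner files that follow the columns, after normexp and loess, the mean Il17a effect was 0.32 at the low dose and 2.63 at the high dose at 3.5 h, and 0.11 at the low dose and 5.32 at the high dose at 48 h. The brighter Iltifb probe was then at 0.60 (low dose) and 1.65 (high dose) at the early time and at 0.15 and 4.60 at the late time, and Il17f at 0.82 and 3.85 and then 0.06 and 2.39. Il22, bright in both channels, was at -0.12 and 1.29 and then 0.27 and 1.89, close to its values in the table.

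With the scanner files taken as recorded, the dose and time pattern of the members was another one. After normexp and loess the mean Il17a effect was then 0.37 at the low dose and 2.73 at the high dose at 3.5 h, and 4.35 at the low dose and 0.92 at the high dose at 48 h. The 2 high dose arrays at 3.5 h were then at -0.07 and 5.54. For Ifng the means were 1.81 and 1.70 (low and high dose) at 3.5 h and 3.35 and 1.77 at 48 h. For Iltifb they were 0.55 and 2.52 at 3.5 h and 3.15 and 0.79 at 48 h, for Il17f 0.89 and 1.04 and then 3.87 and 1.30, and for Il22 0.26 and 0.73 and then 1.85 and 0.49. Signal of these cytokines in the LECT2 channel thus stood out on some arrays under both links, and to which dose and time those arrays belong depends on the link.

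The genes that act before and after these cytokines were read from 10 lists of known pathway members, with 118 genes, of which 11 could not be tested. Over these lists 25 genes rose and 1 fell at the low dose and 3.5 h (2.75% of all genes were called higher and 2.15% lower), and 49 rose and 4 fell at the high dose and 3.5 h (10.2% higher, 11.7% lower). At 48 h 3 rose and 0 fell at the low dose (0.153% higher, 0.0191% lower), and 31 rose and 5 fell at the high dose (4.31% higher, 6.91% lower). The median effect of the tested genes of these lists was 0.71, 0.97, 0.45 and 0.36 in that order, beside a median over all genes between -0.03 and 0.02. Without replicate 1 of the group the genes that rose were 5, 18, 0 and 0, without replicate 2 they were 23, 36, 0 and 7, and with the files as recorded 0, 0, 4 and 0.

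The cytokines that induce type 17 and type 1 lymphocytes rose early. Of 11 tested, 7 rose at the low dose and 10 at the high dose at 3.5 h, where 2.75% and 10.2% of all genes were called higher. At 48 h 0 rose at the low dose (0.153% over all genes) and 5 at the high dose (4.31%). There 1 fell at the high dose, where 6.91% of all genes were called lower. Il15 counts at the low dose and 3.5 h with the recurring value of 2.31 in replicate 1. The median at the high dose and 3.5 h was 3.38. Il23a, the subunit particular to IL-23, had a LECT2 signal of 10143 and 12184 at the high dose and 3.5 h, against 112 and 125 in controls, and rose by log2 6.02 ± 0.20 (SE, limma adjusted p = 9.08e-05). At the high dose and 48 h its LECT2 signal was 47.4 and 57.8, against 44.2 and 64.8 in controls, with neither LECT2 array well above background, and its effect was -0.03 ± 0.20 (limma adjusted p = 0.932). By the table's columns, Il23a at the high dose was thus high at the early time and near control at the late time, when the Il17a and Iltifb values were highest. With the files as recorded this order did not hold. Il17a and Iltifb were then highest at the low dose and 48 h (4.35 and 3.15), and Il23a at the high dose and 48 h was positive. Under the matched files time also cannot be told apart from slide, nor, in the table's values, from the way a column was made.

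Il12a, a subunit of IL-12, rose at both times at the high dose, by 4.21 ± 0.45 at 3.5 h and 5.06 ± 0.45 at 48 h (SE, limma adjusted p = 0.00165 and 0.00317). At 48 h its control was dim, and with normexp and loess the ratio was 3.82-fold. Il1b, which acts with IL-23 on type 17 cells, rose by 3.38 ± 0.46 at 3.5 h and 4.70 ± 0.46 at 48 h at the high dose (limma adjusted p = 0.00338 and 0.00332). Il6 rose by 3.77 ± 0.44 at 3.5 h and 3.24 ± 0.44 at 48 h at that dose (limma adjusted p = 0.00225 and 0.00882). Il27, a subunit of a cytokine that restrains type 17 cells, rose by 4.95 ± 0.21 at the high dose and 3.5 h (limma adjusted p = 0.000279) and was at -0.69 ± 0.21 at 48 h (limma adjusted p = 0.0759). Tgfb1 rose by 1.18 ± 0.20 at 3.5 h and fell by 1.15 ± 0.20 on the log2 scale at 48 h (limma adjusted p = 0.00741 and 0.0164).

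Of 11 receptors for these inducers tested, 0 rose and 1 fell at the low dose and 3.5 h, 1 rose and 1 fell at the high dose and 3.5 h, 0 passed the test at the low dose and 48 h, and 1 rose and 1 fell at the high dose and 48 h. Over all genes 10.2% were called higher and 11.7% lower at the high dose and 3.5 h, so that 1 of 11 in each direction is near the share over all genes. The gene called higher at 48 h was Il23r, the receptor chain particular to IL-23. Its LECT2 signal was 178 and 230, against 5.22 and 15.9 in controls. It passed the background filter only through these 2 LECT2 arrays and so had to differ there, and its value is given as a description without a test. The gene that fell at 48 h was Il1r1, the signalling receptor of IL-1, by 3.36 ± 0.29 on the log2 scale, with LECT2 signals of 125 and 281 against 1198 and 3085 in controls (limma adjusted p = 0.00292).

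Of 12 transcription factors of type 17 and type 1 lymphocytes, 1 rose at the low dose and 3.5 h, 2 rose and 1 fell at the high dose and 3.5 h, 0 changed at the low dose and 48 h, and 1 fell at the high dose and 48 h, counts near the shares over all genes at the high dose. Batf and Stat4 rose at the high dose and 3.5 h, by 2.06 ± 0.26 and 2.59 ± 0.50 (limma adjusted p = 0.00271 and 0.0117). Tbx21, the factor that defines type 1 lymphocytes, did not pass the threshold: it was at 0.61 ± 0.31 at 3.5 h and 0.71 ± 0.31 at 48 h at the high dose (limma adjusted p = 0.188 and 0.168).

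**Figure D3:**
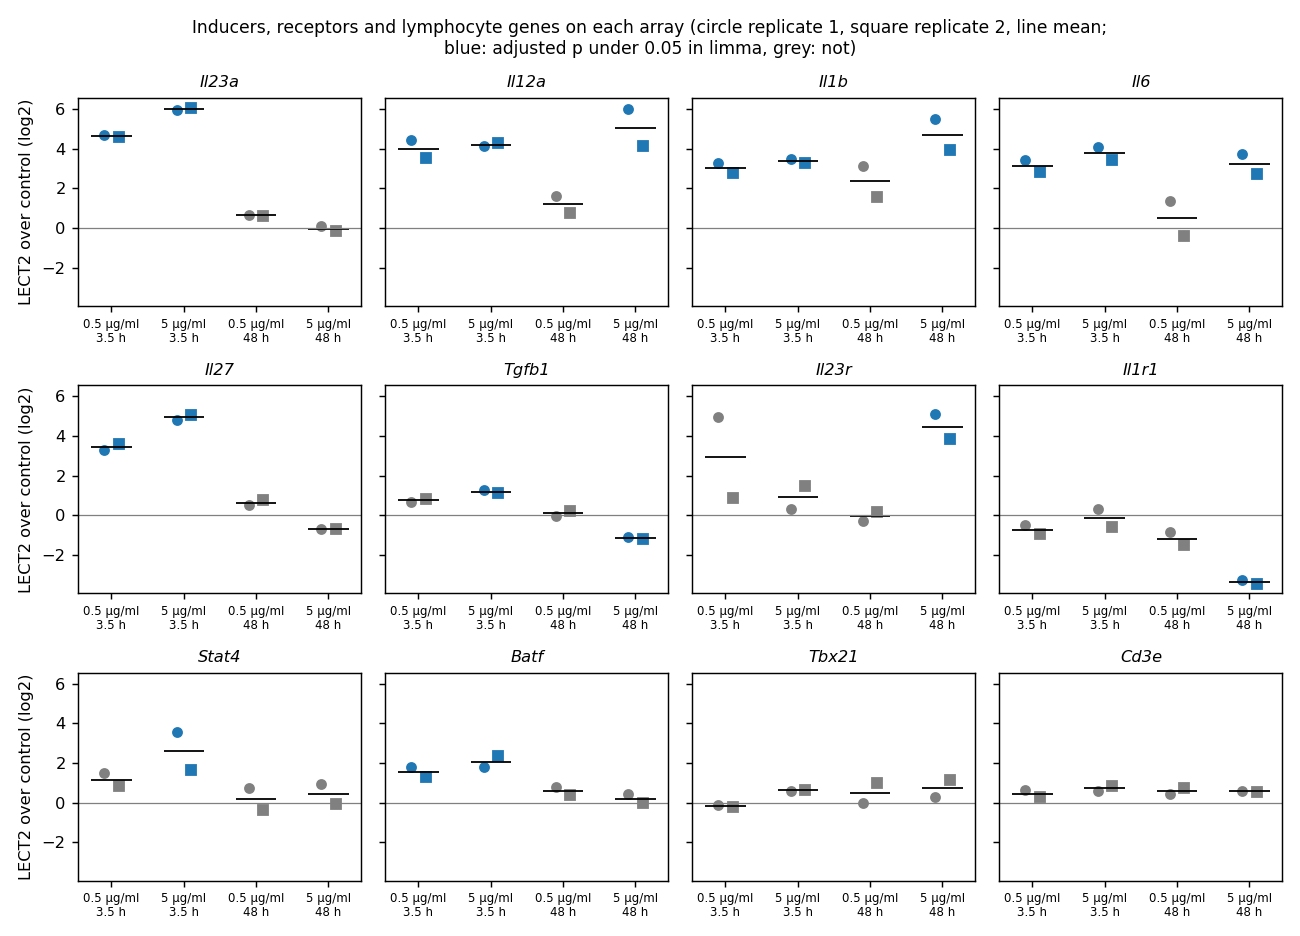
Effect of LECT2 on 12 genes that induce, receive or mark the members' source cells, as log2 of LECT2 over control (vertical axis) in the 4 groups (horizontal axis); circles are replicate 1, squares replicate 2, lines means, and blue marks an adjusted p under 0.05. Il23a stands at 6.02 at the high dose and 3.5 h and at -0.03 at 48 h, and Il1r1 at -0.13 and -3.36. The Il23r values at the high dose and 48 h rest on a dim control and on arrays that alone admitted the gene to the test.

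Some receptors and signalling genes of the 3 cytokines were called. Of 10 genes of the IL-17 family, its receptors and adaptor, 0 changed at the low dose at 3.5 h and at 48 h and at the high dose at 48 h. At the high dose and 3.5 h 4 rose and 1 fell, where 10.2% of all genes were called higher and 11.7% lower. Il17ra rose by 2.22 ± 0.29 there, with LECT2 signals of 14923 and 10842 against 2621 and 2566 in controls (limma adjusted p = 0.00309), and the adaptor gene Traf3ip2 by 1.76 ± 0.33 (limma adjusted p = 0.0107). At 48 h Il17ra was at 0.85 ± 0.29 at the high dose (limma adjusted p = 0.0997).

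Of 6 genes of IL-22 reception, 1 rose (Stat3) and 1 fell (Il10rb) at the high dose and 3.5 h, 1 fell (Il10rb) at the high dose and 48 h, and 0 changed at the low dose at either time. Over all genes 10.2% were called higher and 11.7% lower at the high dose and 3.5 h, and 6.91% lower at 48 h. A count of 1 of 6 is close to these shares. Il10rb was at -1.17 ± 0.26 and -1.19 ± 0.26 (limma adjusted p = 0.018 and 0.029). Il22ra1, the chain that gives cells their response to IL-22, was dim. At the high dose and 3.5 h its LECT2 signals of 61.5 and 51.9 were not well above background. At the low dose and 48 h each channel was well above background on at least 1 array. The signals there were 41.7 and 21.4 with LECT2 against 42.8 and 22.4 in controls.

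Of 6 genes of interferon gamma reception, 2 rose at each dose at 3.5 h, Jak2 and the feedback inhibitor Socs1 (2.75% of all genes were called higher at the low dose and 10.2% at the high dose). At the low dose and 48 h 0 changed, and at the high dose and 48 h 4 rose and 1 fell (4.31% higher and 6.91% lower over all genes). At the high dose and 48 h Jak2, the kinase of the second receptor chain, rose by 2.27 ± 0.27, with LECT2 signals of 5589 and 7788 against 1018 and 1848 in controls (limma adjusted p = 0.00606). Ifngr1 fell at the high dose and 48 h by 1.36 ± 0.22 on the log2 scale (limma adjusted p = 0.0131), with LECT2 signals of 6517 and 9955 against 18216 and 23599 in controls, while Ifngr2 rose by 0.95 ± 0.22 (limma adjusted p = 0.036).

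Known targets of interferon gamma, the largest of the 10 lists, had the most calls at the high dose and 48 h by count. As a share, calls were also frequent there in interferon gamma reception, with 4 higher and 1 lower of 6. Over all genes 2.75% (low dose) and 10.2% (high dose) were called higher at 3.5 h, and 0.153% and 4.31% at 48 h. Of 19 targets tested, 6 rose at the low dose and 12 at the high dose at 3.5 h, 3 at the low dose and 15 at the high dose at 48 h, and 0 fell. Their median was 1.18, 1.93, 1.66 and 2.41 in that order. Gbp2b, Gbp2 and Gbp5, guanylate-binding proteins, were the 3 that rose at the low dose and 48 h, by 4.92 ± 0.42 for Gbp2b and 2.47 ± 0.27 for Gbp5 (limma adjusted p = 0.0136 and 0.0245). Gbp2b had LECT2 signals of 6327 and 3583 there, against 153 and 161 in controls. At the high dose and 48 h Gbp4 rose by 5.31 ± 0.62 and Gbp2b by 5.27 ± 0.42 (limma adjusted p = 0.00547 and 0.00228). These genes also answer type I interferon, so the list is not particular to interferon gamma.

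Known targets of IL-17 were called mainly at 3.5 h. Of 16 tested, 9 rose at the low dose and 12 at the high dose at 3.5 h, where 2.75% and 10.2% of all genes were called higher. At 48 h 0 rose at the low dose (0.153% over all genes) and 4 at the high dose (4.31%), and 0 fell in any group. Cebpd counts at the low dose and 3.5 h with the recurring value of 2.31 in replicate 1. Csf3, the neutrophil growth factor, stood at 6.86 ± 0.49 at the high dose and 3.5 h and at 0.92 ± 0.49 at 48 h (limma adjusted p = 0.000578 and 0.259). Lcn2, an iron-sequestering antibacterial protein, rose at both times, by 3.42 ± 0.43 and 3.83 ± 0.43 (limma adjusted p = 0.00282 and 0.0052). Most genes of this list are also known to answer microbial products and other inflammatory cytokines in macrophages.

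Of 8 targets of IL-22 tested, 1 rose at the low dose and 3 at the high dose at 3.5 h, and 0 fell in any group. Over all genes 2.75% and 10.2% were called higher there. At 48 h 0 rose at the low dose (0.153% over all genes) and 4 at the high dose (4.31%). Those at 48 h were Socs3 and the acute phase genes Saa1, Saa2 and Saa3. Saa2 had LECT2 signals of 791 and 972 at the high dose and 48 h and was not well above background in controls; with normexp and loess the ratio was 6.61-fold (limma adjusted p = 0.00329 in the table's fit). Of 11 other lymphocyte cytokines tested, 1 rose at the low dose and 4 at the high dose at 3.5 h (2.75% and 10.2% over all genes). At 48 h 0 of them changed at either dose. Il10 rose by 4.91 ± 0.47 and Csf2 by 4.20 ± 0.33 at the high dose and 3.5 h (limma adjusted p = 0.00125 and 0.000702), and Il2 by 0.93 ± 0.25 (limma adjusted p = 0.0352). The Th2 cytokine genes Il5, Il9 and Il13 and the gene Il21 were too dim to be tested.

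**Figure D4:**
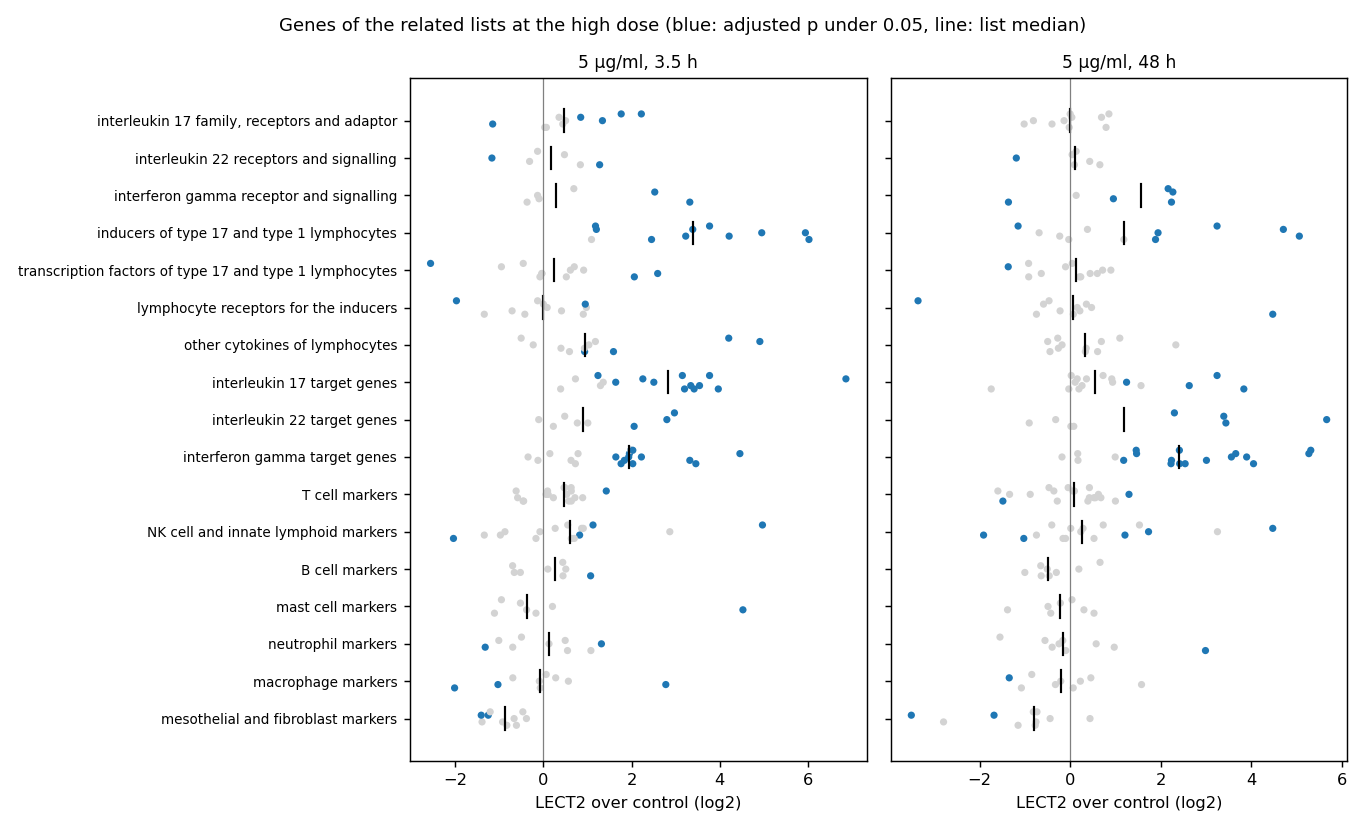
Effect of LECT2 at the high dose (horizontal axis, log2 of LECT2 over control) for each tested gene of the 10 pathway lists and 7 cell marker lists (vertical axis), at 3.5 h (left) and 48 h (right); blue points have an adjusted p under 0.05 and bars are list medians. The inducers have a median of 3.38 at 3.5 h, the interferon gamma targets a median of 2.41 at 48 h, and the T cell markers medians of 0.47 and 0.09.

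Markers of the cells that usually make these cytokines were present in both channels. Cd3e, a chain of the T cell receptor complex, was well above background on 8 of 8 arrays in both channels, with signals between 626 and 1390 with LECT2 and between 376.5 and 811 in controls. Its effect was 0.45, 0.71, 0.58 and 0.56 (each dose at 3.5 h and then at 48 h, low dose first; limma adjusted p from 0.0521 to 0.431). Of 19 T cell markers tested 1 rose at each dose at 3.5 h (Cd247, by 1.08 ± 0.23 and 1.42 ± 0.23), 0 changed at the low dose and 48 h, and at the high dose and 48 h Cd3g rose by 1.30 ± 0.25 and Cd28 fell by 1.49 ± 0.26 on the log2 scale. Over all genes 2.75% (low dose) and 10.2% (high dose) were called higher at 3.5 h. At the high dose and 48 h 4.31% were called higher and 6.91% lower, so these counts are near or below the shares over all genes. The summed signal of the 20 T cell markers on the array was higher with LECT2 than in the control of the same array on 8 of 8 arrays. At the low dose it was 18160 and 14690 with LECT2, against 13538 and 10811 in controls, at 3.5 h, and 11593 and 11923, against 10339 and 9169, at 48 h. The sums for the high dose were 24276 and 22863 with LECT2, against 18703 and 16367 in controls, at 3.5 h, and 14917 and 17813, against 14571 and 14732, at 48 h. Bright genes weigh most in these sums, such as Cd4 (3574 to 7473 with LECT2 and 2743 to 5364 in controls). Tcf7 was well above background on 3 LECT2 arrays but on 8 control arrays. The list's median effect was 0.50 (low dose) and 0.47 (high dose) at 3.5 h, and 0.30 and 0.09 at 48 h.

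Of 16 NK cell and innate lymphoid markers 0 changed at the low dose at either time, 3 were called higher (Areg, Nkg7, Gzma) and 1 fell (Klra8) at the high dose and 3.5 h, where 21.9% of all genes were called in either direction. Areg passed the background filter only through 2 LECT2 arrays of the high dose and 0 control arrays. It had to differ there, and its value is a description without a test. By 48 h at that dose 3 were called higher (Klrd1, Gzma and Il23r, the last with the limit given above) and 2 fell (Klra8, Klrb1c), where the share over all genes was 11.2%. The summed signal of this list was between 11556 and 22035 with LECT2 and between 7708 and 17070 in controls, and higher with LECT2 on 6 of 8 arrays. Much of it came from Prf1, at 6207 to 9974 with LECT2 and 4249 to 8925 in controls. Ncr1, the NK cell receptor gene, was well above background with LECT2 on 6 arrays and in controls on 7. Of 9 neutrophil markers tested Mmp8 fell at each dose at 3.5 h, where 2.15% (low dose) and 11.7% (high dose) of all genes were called lower. Camp rose at the high dose and 3.5 h (10.2% over all genes), and 0 passed the test at the low dose and 48 h. S100a8 rose at the high dose and 48 h (4.31% over all genes), by 2.99 ± 0.35 (limma adjusted p = 0.00571). The list's median effect was -0.04 at the low dose and 0.13 at the high dose at 3.5 h, and 0.05 at the low dose and -0.16 at the high dose at 48 h. Its summed signal at the high dose and 48 h was 17317 and 22551 with LECT2, against 6864 and 11777 in controls, most of it from Mmp8 (12967 and 15834 with LECT2, against 5594 and 9549 in controls) and S100a8 (3364 and 5504 with LECT2, against 370 and 799 in controls). Of 7 mast cell markers tested only Hdc was called, higher and at 3.5 h alone. It was well above background on 3 LECT2 arrays and 1 control array, so it could not pass the background filter without LECT2 arrays. Its effect of 4.52 at the high dose and 3.5 h is thus given as a description without a test. The summed mast cell signal there was 15388 and 11825 with LECT2 against 24087 and 7372 in controls. Of 10 mesothelial and fibroblast markers Wt1 and Pdgfra fell at the low dose and 3.5 h and at the high dose at both times, and 0 rose. Over all genes 2.15% were called lower at the low dose and 3.5 h. At the high dose 11.7% were called lower at 3.5 h and 6.91% at 48 h. The list median was -1.12 at the low dose and -0.88 at the high dose at 3.5 h. At 48 h it was -0.78 at the low dose and -0.79 at the high dose. Of 8 B cell markers 1 rose, at the high dose and 3.5 h (Blk), near the share of 10.2% of all genes called higher there. Of 9 macrophage markers 1 rose and 1 fell at the low dose and 3.5 h, and 1 rose and 2 fell at the high dose and 3.5 h. At 48 h 0 changed at the low dose and 1 fell at the high dose. That list's median was -0.075, -0.07, -0.10 and -0.21 in that order. Summed over each list, the signal was higher with LECT2 than in the control on 5 of 8 arrays for macrophage markers and on 4 for neutrophil markers. It was higher on 2 each for B cell and mast cell, and on 0 for mesothelial and fibroblast markers. Bright genes such as Itgam and Cd14 (up to 375508 with LECT2 and 75662 in controls) weigh most in the macrophage sum. The part of lymphocytes or other cells in the members' values was not tested.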

How the data were processed

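RNA of 8 pairs of cultures was measured on 2-colour arrays. Per the file headers the authors' scanner files come from Agilent Feature Extraction 10.7.3.1 and hold, for each channel, raw and processed intensity (the second with background removed and dyes balanced), and a log10 ratio with Cy5 on top. The deposited table holds log2 values, and how it was made is not given in the sources used here; by value its 48 h columns equal the ratio of the processed intensities (99.4% to 99.5% of probes within 0.01), its 3.5 h columns do so for 2.66% to 9.06% only. The table with its sign turned was the main source, because columns and files conflict.

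Probes were named by accession through RefSeq (26412 of 39429; GRCm38.p6, used for names and promoters only). A probe was kept if 2 or more of the 8 arrays had it well above background in either channel, and the brightest was used per gene, leaving 26148 genes (16754 with a symbol). limma 3.58.1 in R 4.3.3 fitted 1 mean per group on 4 residual degrees of freedom, with Benjamini-Hochberg adjustment at 0.05. With 2 arrays a group precision is limited, and an effect had a median standard error of 0.28. The script was tested on simulated data. Slide and time cannot be told apart under the matched files (slide 1 holds all 3.5 h arrays, slide 2 all 48 h arrays). The same holds for time and the making of the table's columns. Whether the 2 doses' arrays shared a control RNA is not given in the sources used here.

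The members and gene lists were chosen with earlier results of these data known. Genes were named by a rule: every member, up to 4 called genes of each list in each direction, and Il23a, Il1b, Il6, Tbx21, Cd3e, Il17ra, Il22ra1 and Ifngr1 in every case; not every gene under it is reported here, and Il12b is not analysed here. Alternatives were normexp (offset 50) and loess on the scanner files, matched or as recorded, no background filter, median-centred columns, a replicate block, and each replicate left out.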

Additional observations from a re-analysis of the deposited data

Results flagged for a closer look

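For 18 of the 49 genes that the naming rule takes from the related and marker lists, most of them named because they were called in a group, the effect of the high dose differed between 48 h and 3.5 h by a test of the difference itself (limma, adjusted p under 0.05 over all genes, from 0.00119 to 0.0488; 8.3% of all genes passed it). The log2 effect was lower at 48 h than at 3.5 h for 15 of them. Among the inducers and their receptors and factors the difference was -6.05 for Il23a, -5.64 for Il27, -3.9995 for Il1a, -2.33 for Tgfb1, -1.86 for Batf and -3.23 for Il1r1. Among other cytokines and targets it was -4.22 for Il10, -3.11 for Csf2, -5.94 for Csf3, -3.28 for Nfkbiz, -3.9951 for Mmp3 and -1.98 for Bcl3, and among markers -3.44 for Areg, -1.33 for Cd247 and -4.22 for Hdc. It was higher at 48 h for the other 3, with 3.32 for Gbp2b, 2.25 for Gbp2 and 2.60 for Klrd1. Areg passed the background filter only through LECT2 arrays of the high dose, and Hdc could not pass it without LECT2 arrays. For these genes the test of the difference is a description only. With either replicate left out, or with the scanner files as recorded, this test called 0 genes. Time and slide cannot be told apart here if the files that follow the columns are the right ones. Time then also goes with the way the table's columns were made, which differed between 3.5 h and 48 h.

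Ifngr1 is given because both arrays of the low dose at 48 h lay above 0 and both of the high dose below it. The high dose effect was lower by a difference of -1.51 on the log2 scale, and this difference was not tested.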

How the results depend on the processing

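With the scanner files matched to the columns (normexp and loess) the genes called were 2376 instead of 1279 at the low dose and 3.5 h, 4590 instead of 2170 for the time difference at the high dose and 8 instead of 0 for the dose difference at 3.5 h. With the files as recorded they were 0 at each dose at 3.5 h and for the time difference, and 1 at the high dose and 48 h. With no background filter they were 733 at the low dose and 3.5 h, 19 at the low dose and 48 h, 1689 at the high dose and 48 h and 940 for the time difference, with more genes tested (32539). Centring the columns moved the split of higher and lower calls to 528 and 840 from 718 and 561 at the low dose and 3.5 h, to 1850 and 4202 from 2661 and 3063 at the high dose and 3.5 h, and to 1591 and 649 from 1181 and 989 for the time difference. Leaving out 1 replicate gave 117 to 1372 calls at the low dose and 901 to 2442 at the high dose at 3.5 h, 0 to 5 and 14 to 57 at 48 h, and 0 to 0 for both differences, with the lone array assumed to vary like the other groups.

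The replicate numbers were not taken as pairs: deviations from the group means correlated between groups at r = 0.04, 0.17, 0.20, 0.00, -0.06 and 0.47. With the replicate block 97 genes were called at the low dose and 48 h instead of 45. Of 74 calls of genes named in the lists, 70 were kept with the matched files, 0 with the recorded files, 64 without a filter, 70 with centring, 74 with the block, 20 without replicate 1 and 42 without replicate 2.

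Direction turned in these cases, and the cause was not tested. At the high dose and 48 h Il23a was at 0.068 with the matched files, 3.14 with the recorded files and from -0.16 to 0.10 with 1 replicate left out. With the recorded files Tgfb1 was at -0.13 at 3.5 h and 0.71 at 48 h (high dose), Ifngr1 at -0.67 at the low dose and 48 h and Il22 at 0.26 at the low dose and 3.5 h. Il22 at the low dose and 3.5 h was from -0.71 to 0.56 with 1 replicate left out. The dim Iltifb probe at the low dose and 48 h was at 0.19 (matched), 0.68 (recorded) and from -0.26 to 0.22 (1 replicate left out), and it gave -0.0195 there against 1.86 by the brighter probe. Of the 24 member values, 13 moved by more than 1 SD with the matched files and 16 with the recorded files. Dim control channels limit the folds of Il17a, Iltifb and, at 48 h, Ifng. For Ifng the order of the 2 times also turned with the matched files, at both doses.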
